A study of Arabidopsis thaliana with 20 samples.

Results

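Normal-looking Arabidopsis thaliana plants that overexpress PPD3 were set against wild type (WT) by RNA sequencing. The comparison holds 6 of the 20 samples of the series, 3 with the genotype PPD3-OX T+ and the phenotype normal, called T+ normal here, and 3 WT samples. They were chosen by genotype and phenotype label alone. All genes were considered, 21703 of 34262 loci after a filter on low counts. The question, as the labels give it, is what differs from WT in plants that carry the transgene and do not show the dwarf phenotype of other T+ plants.

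T+ normal plants carry the overexpression transgene in the Col-0 ecotype, and WT plants are Col-0 without it, although WT 3 is labelled Col-1 under ecotype. The other samples are T+ plants with a dwarf phenotype (T+ dwarf, n = 3), dwarf plants that are siblings of T+ and lack the transgene (Gen1 dwarf, n = 3) and the progeny of Gen1, also without it, with a dwarf (Gen2 dwarf, n = 5) or a large phenotype (Gen2 large, n = 3). All plants were harvested at bolting, as tissue from above the ground, after growth on soil at 22 and 20 °C with a photoperiod of 12 h. Plant age in days, the promoter that drives the transgene, the number of independent lines, whether 1 sample is 1 plant or a pool, and the hour of harvest are not stated in the labels. The samples of a group are labelled biological replicates, so p-values describe the spread from sample to sample, which may be technical in part.

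PPD3 is a member of the PsbP domain family, nuclear-encoded proteins of the thylakoid lumen, the inner space of the chloroplast membranes, where relatives of PsbP help to build or run the photosystems. Leaves of Arabidopsis also make flavonols and anthocyanins, phenolic pigments that start from phenylalanine, pass through chalcone synthase, and build up in strong light, cold or when sugar accumulates. Jasmonate is a lipid-derived hormone of wounding and defence. Its active form removes JAZ repressors from MYC transcription factors, which then switch on defence genes and also the genes that make and break down jasmonate.

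Gene counts came to 88054134, 80377820 and 89686295 in T+ normal 1, 2 and 3, against 117753467, 98038507 and 79962022 in WT 1, 2 and 3. Levels are given in CPM, gene counts per 1000000 counts of the scaled library. The limit for a gene with 0 counts is 3 counts, which is 0.0342 to 0.039 CPM in T+ normal samples and 0.0246 to 0.0384 CPM in WT samples, for counting error only. T+ normal 1 stood apart when the 2000 genes of highest variance were reduced to principal components, at 68.31 and −57.12 on the first and second, while T+ normal 2 and 3 lay at 24.7 and 18.16 and at 24.87 and 19.58. The WT samples lay at 2.05 and 34.74, −11.75 and 14.57, and 17.02 and −12.7. T+ normal 1 also had the fewest genes with a count, 21742. Counts over all genes and for several lists are therefore given with and without it, and most single genes only with it. Of the 78 called genes named by the rules given under processing, 51 lost their call without it.

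The labelled tissue was checked with marker genes. Root markers summed to 0.0125 to 0.052 CPM in T+ normal samples and 0 to 0.121 CPM in WT samples, with EXPA7 and EXPA18 at 0 in all 6. The 9 flower markers summed to 1.55 to 2.09 CPM in T+ normal samples and 1.36 to 2.58 CPM in WT samples. The 7 markers of woody stem walls summed to 25.9 CPM in T+ normal 1 and to 59 and 73.2 CPM in the other T+ normal samples, against 54 to 114 CPM in WT. All 7 had a log2 difference under 0 (median −0.82, and −0.49 without T+ normal 1) and none was called. The 5 leaf markers summed to 21096 to 28728 CPM in T+ normal samples, above the 14896 to 18716 CPM of WT samples. RBCS1A and LHCB1.3 make up most of these sums. RBCS1A, CA1 and GLDP1 overlapped between the groups, with RBCS1A at 6424 to 13063 CPM in T+ normal against 5433 to 6991 CPM in WT. CAT2 was lower in T+ normal, at 110.4 to 198 CPM against 206 to 307 CPM in WT. The mean over the 5 markers overlapped too, with T+ normal 3 at −0.05 and WT 3 at 0.30 on the log2 scale relative to the WT mean. None of the 5 was called. In RNA of whole shoots, fewer cells of a type and less RNA per cell cannot be told apart.

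PPD3 (AT1G76450, chromosome 1 from 28684551 to 28686244 of TAIR10.1, plus strand) had 812, 636 and 652 CPM in T+ normal samples, against 118, 93.9 and 125 CPM in WT samples. The groups did not overlap, and the levels follow the genotype labels of all 6 samples. The log2 difference was 2.64 ± 0.19, SE, adjusted p = 2.97e-07, from edgeR's quasi-likelihood test with Benjamini-Hochberg adjustment over all tested genes, as for all adjusted p-values here. Its reads cannot be separated from those of AT1G76460, which overlaps it, since the library kit does not mark strand. MSH1, a DNA repair protein of plastids and mitochondria, had 18.2, 15.8 and 11.5 CPM in T+ normal samples, against 12.1, 17.2 and 16.3 CPM in WT samples and was not called (−0.00 ± 0.15, SE, adjusted p = 0.999).

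In T+ normal plants, 16 of 35 flavonoid genes and 17 of 55 jasmonate genes were called lower than in WT. Without T+ normal 1, and likewise without WT 2, 1 flavonoid gene and 3 jasmonate genes were called. AT2G20670 and BT2, both known to be repressed by sugar, were called higher, with log2 differences of 2.92 and 2.74, while the sugar starvation list as a whole had 3 of 23 genes called higher and 1 lower. Photosynthesis genes were shifted up by a median of 0.51, with 4 of 85 called. A gene was called at an adjusted p under 0.05. Of 21703 genes, 290 were called, or 1.34%, with 116 higher (0.534%) and 174 lower (0.802%) in T+ normal. The samples of the 2 groups did not overlap in 287 of the 290, where 3317 of all tested genes, or 15.3%, did not overlap. The calls used these same samples, so the 287 are a description. The called falls were larger, with a median log2 difference of −1.12 against 0.81 for the rises, and 109 falls against 41 rises reached a log2 size of 1. The median over all tested genes was −0.02. Without T+ normal 1 the fit called 54 of 21990 genes, or 0.246%, and 53 of these were among the 290. All 290 kept their direction there, which was near certain for the 287 without overlap, so it is no check of them. None of the 290 log2 differences moved by more than 1.5 times. Without WT 2 the fit called 36 genes, and without WT 3 it called 559. There were 28 genes, 8 higher and 20 lower, that were called in each of the 6 fits that leave out 1 library.

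**Figure D1:**
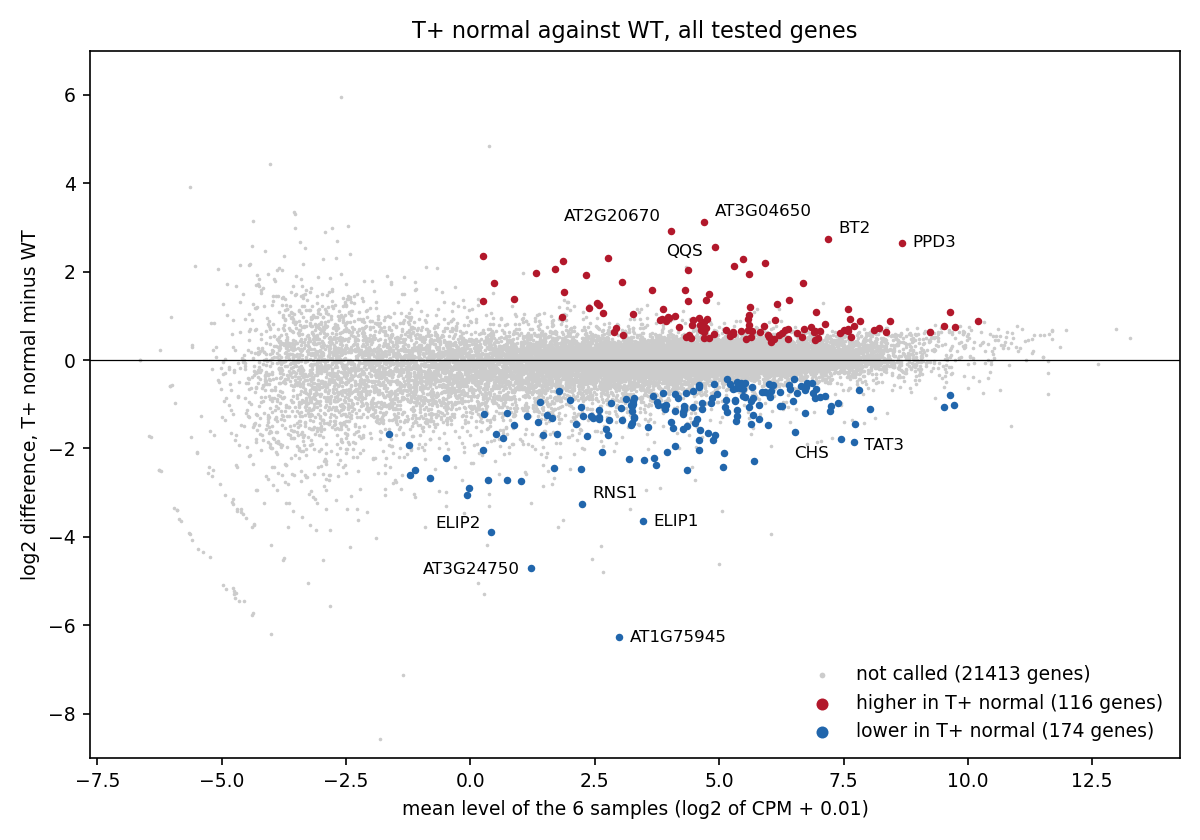
Log2 difference of T+ normal minus WT (vertical axis) against the mean level over the 6 samples (horizontal axis, log2 of CPM + 0.01) for all 21703 tested genes. The 116 genes called higher are red, the 174 called lower blue, and the falls reach further from 0 than the rises, to −6.27 at AT1G75945.

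The largest rises included AT2G20670 and BT2. AT2G20670, annotated with a domain of unknown function (DUF506) and with a level that drops when plants are fed sugar, had 24.2, 15.8 and 46.4 CPM in T+ normal samples, against 4.02, 2.2 and 5.2 CPM in WT samples. The lowest T+ normal sample, 15.8 CPM, stood above the highest WT sample, 5.2 CPM, a log2 difference of 2.92 ± 0.39, SE, adjusted p = 0.00155, which was called in all 6 fits without 1 library. BT2 (chromosome 3 from 17907767 to 17910738) encodes a scaffold protein with BTB and TAZ domains that nitrate induces and sugar represses. It had 282, 154 and 326 CPM in T+ normal samples, against 32, 21.7 and 60.9 CPM in WT samples, again without overlap (2.74 ± 0.51, SE, adjusted p = 0.0184, but adjusted p = 0.0696 without T+ normal 1). No BT gene was called without T+ normal 1 or without WT 2. In the full fit none of the other 4 BT genes was called. BT5 had 34.3, 23.5 and 40.9 CPM in T+ normal samples, against 5.31, 4.4 and 13.2 CPM in WT samples and missed the threshold (2.11 ± 0.53, SE, adjusted p = 0.0589), while BT1, BT3 and BT4 differed by −0.21, −0.04 and 0.16.

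Of the 9 tested signalling genes of the sugar starvation list, 3 were called higher, AT2G20670 among them, 8 had a log2 difference over 0, and the median was 0.83. KMD1 and KMD4 are F-box proteins with kelch repeats that mark regulators of the cytokinin response and phenylalanine ammonia-lyase for breakdown. KMD1 had 31.4, 20.9 and 46.9 CPM in T+ normal, against 4.58, 10.1 and 9.62 CPM in WT (2.03 ± 0.46, SE, adjusted p = 0.0396), and KMD4 had 94.5, 69 and 141 CPM in T+ normal, against 40.6, 39.7 and 46.1 CPM in WT (1.27 ± 0.24, SE, adjusted p = 0.0143). None of the 7 dark-inducible genes of the list was called (median −0.05, 4 of them under 0), and ASN1, an asparagine synthetase induced in the dark, had 0.896, 8.72 and 13.2 CPM in T+ normal, against 12.4, 8.94 and 9.61 CPM in WT. Of the genes for breakdown of amino acids and sugars, BCAT2, a branched-chain transaminase, was called lower (−1.70 ± 0.39, SE, adjusted p = 0.0386). Over the whole list, 3 of 23 genes were called higher and 1 lower, beside 0.534% and 0.802% of all tested genes, with a median of 0.17. Of these 23, between 1 and 6 were called when 1 library was left out, with 1 without WT 2.

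Other large rises were in genes of varied function. AT5G19120, an aspartyl protease family member, had 76, 47.3 and 98.2 CPM in T+ normal samples, against 11.3, 12.3 and 22.2 CPM in WT samples (2.28 ± 0.40, SE, adjusted p = 0.0128). OXS3, a nuclear protein that raises tolerance to oxidative stress and heavy metals, had 84.5, 36.5 and 70 CPM in T+ normal, against 9.44, 13.1 and 21.1 CPM in WT (2.13 ± 0.44, SE, adjusted p = 0.0261). AT3G15450, which belongs to the aluminium-induced proteins, had 79.5, 71.8 and 149 CPM in T+ normal, against 22.8, 16.2 and 26.3 CPM in WT (2.20), and AT5G21940 had 168, 93.4 and 211 CPM in T+ normal, against 45.6, 44.5 and 50.3 CPM in WT (1.75). The F-box gene AT3G23880 differed by 2.24, the glutaredoxin-like gene AT3G62950 by 1.97, AT3G07350 by 1.92, the RING gene AT3G18773 by 1.77 and AT2G25200 by 1.59. AT1G04770, a tetratricopeptide protein, had a smaller but steady difference, with 79.3, 53 and 72.9 CPM in T+ normal, against 26.4, 30.9 and 32.1 CPM in WT (1.20 ± 0.16, SE, adjusted p = 0.00119). AT1G23390, a kelch-repeat F-box protein known to mark chalcone synthase for breakdown, had 70.7, 50 and 109.6 CPM in T+ normal samples, against 20, 18 and 21.9 CPM in WT samples. The lowest T+ normal sample stood above the highest WT sample, and the difference of 1.94 ± 0.29, SE, adjusted p = 0.00415 was called in all 6 fits without 1 library.

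**Figure D2:**
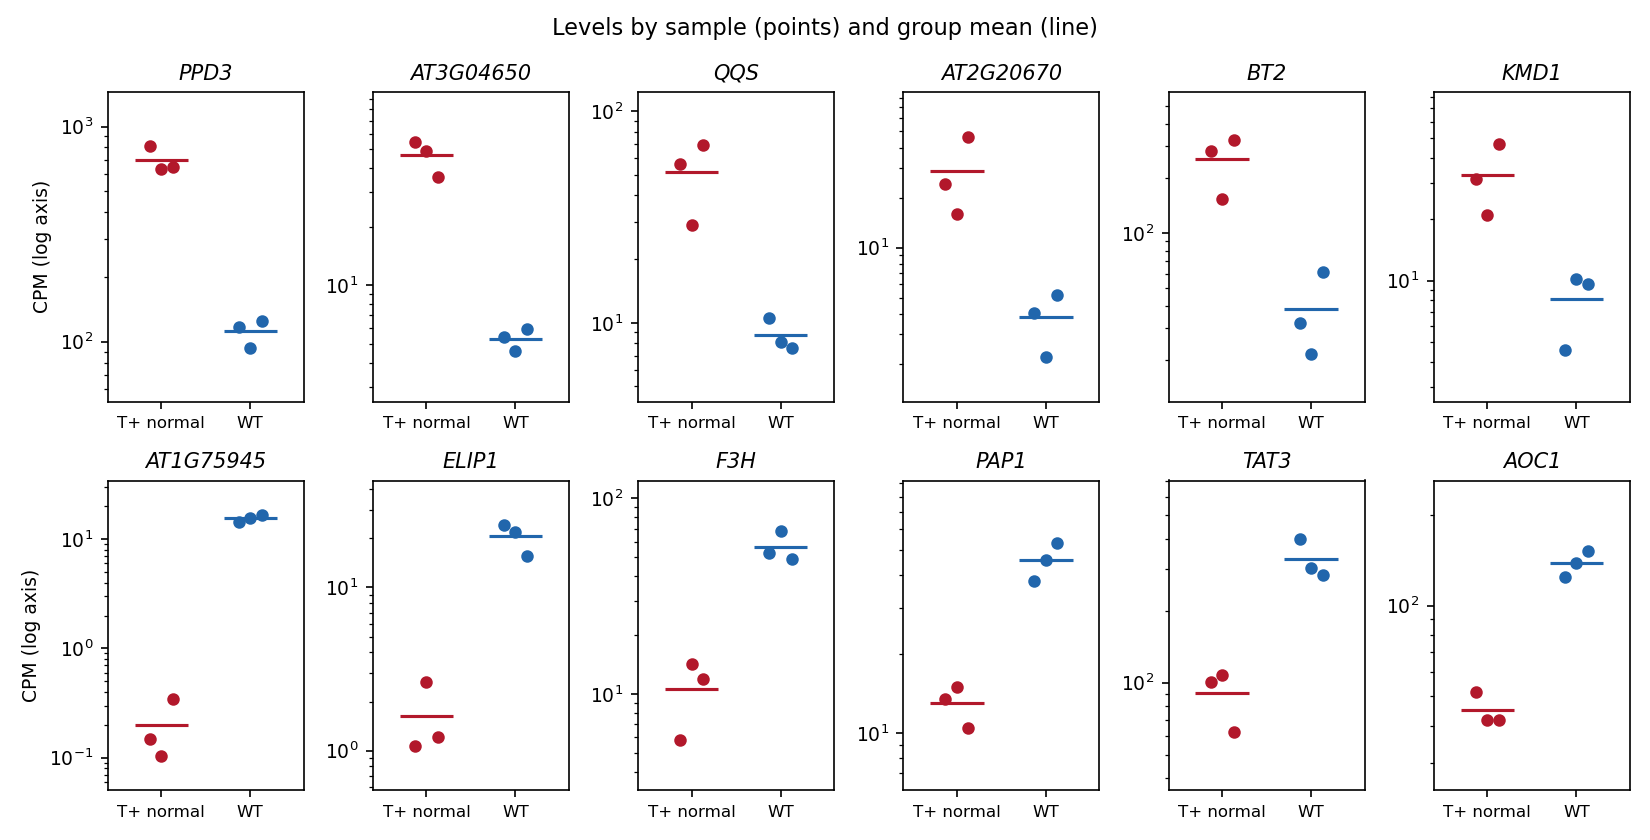
Level in CPM (vertical log axis) of 12 genes in each T+ normal (red) and WT (blue) sample as points, with the group mean as a line. The upper row holds genes that rose and the lower row genes that fell, and in none of the 12 do the groups overlap.

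The 250 bases before the annotated start of each called gene were searched on both strands for short motifs, chosen with the gene values known, in the TAIR10.1 genome. Such a window can run into a neighbouring gene, and a match is a description of letters, not a bound site. The letters TATCCA, known from sugar-repressed genes, were present before 25.9% of the 116 genes called higher, 12.6% of the 174 called lower and 14.0% of 21690 tested genes with a window. GATAAG, the core bound by GATA factors, was present before 25.9% of the genes called higher, 8.62% of those called lower and 12.4% of all. The G-box CACGTG, bound by HY5, PIF and MYC factors, was present before 8.62%, 17.8% and 7.20%. It was present before 25.7% of the 35 flavonoid genes and 22.7% of the 22 light-harvesting genes, both described below. TATCCA was present before 20.0% of these flavonoid genes and 36.4% of these light-harvesting genes. No light-harvesting gene was called. The evening element AAATATCT was present before 9.48%, 5.17% and 4.98%, the ABA-response element ACGTGGC before 8.62%, 5.75% and 3.81%, the MYB element ACCTACC before 0.862%, 2.30% and 1.18%, and GCCGCC before 0%, 1.72% and 1.96%. TATCCA and the reverse of GATAAG can share bases as CTTATCCA, which lay before 6.03% of genes called higher, 0% of those called lower and 1.17% of all.

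The windows of 3 genes that rose and 3 that fell are printed 5′ to 3′ on the gene's strand, from RefSeq's TAIR10.1, to show these motifs in place. Capitals mark each match of the motifs named above, in either orientation. The genes that rose are BT2 (chr3:17910739-17910988, minus strand), AT5G19120 (chr5:6414238-6414487, plus strand) and CFBP1 (chr3:20016587-20016836, plus strand), the plastid fructose-bisphosphatase described with the Calvin cycle, where GATAAG and TATCCA share bases.
BT2: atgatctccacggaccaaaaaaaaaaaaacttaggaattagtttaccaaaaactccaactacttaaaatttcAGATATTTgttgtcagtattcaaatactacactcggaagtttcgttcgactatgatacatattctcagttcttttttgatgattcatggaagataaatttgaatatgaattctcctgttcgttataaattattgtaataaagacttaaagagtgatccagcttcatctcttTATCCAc
AT5G19120: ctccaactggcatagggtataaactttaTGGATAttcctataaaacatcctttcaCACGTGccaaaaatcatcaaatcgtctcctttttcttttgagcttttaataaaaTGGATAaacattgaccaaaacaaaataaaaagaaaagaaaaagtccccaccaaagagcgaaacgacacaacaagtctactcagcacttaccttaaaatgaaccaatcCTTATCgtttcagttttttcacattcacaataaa
CFBP1: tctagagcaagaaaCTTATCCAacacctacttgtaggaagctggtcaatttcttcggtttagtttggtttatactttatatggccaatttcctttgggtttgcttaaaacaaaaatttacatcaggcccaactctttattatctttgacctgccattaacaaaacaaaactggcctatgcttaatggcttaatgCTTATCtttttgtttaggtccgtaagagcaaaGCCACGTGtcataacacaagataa
The genes that fell are CHS (chr5:4488226-4488475, plus strand), F3H (chr3:19024942-19025191, plus strand) and ELIP1 (chr3:8085670-8085919, minus strand), each with a G-box in the window.
CHS: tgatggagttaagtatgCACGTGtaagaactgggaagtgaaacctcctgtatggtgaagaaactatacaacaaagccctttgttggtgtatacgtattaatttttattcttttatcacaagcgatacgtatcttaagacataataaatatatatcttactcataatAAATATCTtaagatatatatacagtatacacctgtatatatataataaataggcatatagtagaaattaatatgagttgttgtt
F3H: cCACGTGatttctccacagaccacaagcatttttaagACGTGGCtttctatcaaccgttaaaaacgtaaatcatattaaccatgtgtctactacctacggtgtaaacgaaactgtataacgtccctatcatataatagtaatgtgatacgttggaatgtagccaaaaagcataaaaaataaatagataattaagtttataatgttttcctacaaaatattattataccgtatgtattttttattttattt
ELIP1: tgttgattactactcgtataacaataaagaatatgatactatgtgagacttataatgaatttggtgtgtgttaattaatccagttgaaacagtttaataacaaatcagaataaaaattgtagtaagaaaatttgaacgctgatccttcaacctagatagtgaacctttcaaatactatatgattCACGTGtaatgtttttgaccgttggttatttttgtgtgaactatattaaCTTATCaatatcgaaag

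Of 35 tested flavonoid and anthocyanin genes, 16 were called lower and 2 higher, beside 0.802% and 0.534% of all tested genes. The median was −1.51, and the 2 that were called higher are repressors. Calls were made among the early and late enzymes and the activators, and for 1 of 4 genes of flavonol glycosylation. Without T+ normal 1 the median was −1.30 with 1 gene called, and without WT 2 it was −1.45 with 1 called. Counts without another library lay between 11 and 21. The mean over the list, relative to the WT mean, was −1.81 in T+ normal 1, −1.09 in T+ normal 2 and −1.04 in T+ normal 3, against −0.15, 0.15 and 0.00 in WT 1, 2 and 3. The stem markers, on the same scale, were at −1.74, −0.26 and −0.58, against −0.72, 0.32 and 0.39, and their part in the fall was not tested.

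The early enzymes make the flavonoid skeleton, and 5 of 7 were called lower (median −1.70). CHS, chalcone synthase, had 52.6, 115 and 69 CPM in T+ normal samples, against 199, 379 and 239.9 CPM in WT samples, a log2 difference of −1.79 ± 0.34, SE, adjusted p = 0.0184. CHI, chalcone isomerase, had 9.09, 16.8 and 13.9 CPM in T+ normal, against 34, 49 and 41.4 CPM in WT (−1.64 ± 0.25, SE, adjusted p = 0.00415) and was called in all 6 fits without 1 library. F3H, flavanone 3-hydroxylase, had 5.83, 14.2 and 12 CPM in T+ normal, against 52.5, 68.2 and 49.2 CPM in WT (−2.41 ± 0.46, SE, adjusted p = 0.019). Both CHS and F3H overlap another annotated gene and are uncertain for that reason. Named after their values were seen, CHIL, a helper of CHS, differed by −1.70 and F3'H, which adds a hydroxyl group to the B ring, by −2.24. FLS1, flavonol synthase, had 16.7, 36.4 and 25.8 CPM in T+ normal, against 64.9, 84.6 and 80.8 CPM in WT and was not called (−1.54 ± 0.38, SE, adjusted p = 0.0535), nor was 4CL3 (−1.35). Upstream, in the phenylpropanoid entry, 3 of 11 genes were called lower, beside 0.802% of all tested genes. The phenylalanine ammonia-lyase PAL1 had 59.1, 78.2 and 55.8 CPM in T+ normal, against 109, 199.6 and 137 CPM in WT (−1.21), and its relative PAL2 had 39.9, 59.7 and 52.4 CPM in T+ normal, against 75.7, 133 and 102 CPM in WT (−1.03). MYB7, a repressor, had 2.07, 3.12 and 3.26 CPM in T+ normal, against 4.57, 6.79 and 4.31 CPM in WT (−0.89). None of the 11 was called without T+ normal 1, T+ normal 3 or WT 2.

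Late anthocyanin enzymes showed the lowest median of the route, −1.92, with 6 of 8 called lower. UGT75C1 and UGT79B1 attach sugars to anthocyanin. UGT79B1 had 2.02, 4.69 and 4.9 CPM in T+ normal samples, against 12, 24.8 and 18.8 CPM in WT samples (−2.26 ± 0.46, SE, adjusted p = 0.024), and UGT75C1, which overlaps other genes, had 8.28, 11.2 and 12.6 CPM in T+ normal, against 27.7, 51.2 and 33.9 CPM in WT (−1.81 ± 0.35, SE, adjusted p = 0.0193). AT1G03495, an acyltransferase that adds coumarate to anthocyanin, had 0.685, 1.69 and 1.9 CPM in T+ normal, against 4.84, 11.1 and 7.59 CPM in WT (−2.46 ± 0.54, SE, adjusted p = 0.0344). DFR and LDOX, chosen after their values were seen, differed by −2.11 and −2.03. Outside the list, UGT78D3, a flavonol arabinosyltransferase, had 0.361, 0.662 and 0.547 CPM in T+ normal, against 3.12, 4.48 and 2.87 CPM in WT (−2.74 ± 0.54, SE, adjusted p = 0.0189), and UGT84A1, which acts on hydroxycinnamates, had 0.0747, 0.351 and 0.262 CPM in T+ normal, against 2.24, 1.58 and 1.28 CPM in WT (−2.89 ± 0.62, SE, adjusted p = 0.0262).

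Of the activators, 4 of 11 were called lower, with a median of −1.46, beside 0.802% of all tested genes called lower. PAP1, PAP2 and MYB113 are related MYB factors that switch on the late genes. PAP1 had 13.5, 15 and 10.5 CPM in T+ normal samples, against 38.1, 45.8 and 53.2 CPM in WT samples (−1.81 ± 0.33, SE, adjusted p = 0.0148). PAP2 had 0.174, 0.299 and 0.137 CPM in T+ normal, against 1.41, 2.72 and 0.91 CPM in WT (−3.05 ± 0.69, SE, adjusted p = 0.0369), and MYB113 had 0.647, 0.546 and 1.75 CPM in T+ normal, against 5.36, 6.54 and 4.27 CPM in WT (−2.45 ± 0.55, SE, adjusted p = 0.0376). MYB12, which drives the early genes and flavonol synthesis, fell as well (−2.03), while its relatives MYB11 and MYB111 (−1.68 and −0.86) were not called. TTG1, the WD40 partner of the MYB complex, had 33.6, 37.8 and 30.1 CPM in T+ normal, against 26.8, 39 and 40.5 CPM in WT. PAP2 and MYB113 are neighbouring near-copies, so reads may be lost or split between them.

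Of the 5 repressors, 2 were called higher, with a median of 0.64, beside 0.534% of all tested genes called higher. None of the 5 was called without T+ normal 1 or without WT 2. MYBL2, an R3 MYB that blocks the activating complex, had 23.8, 16.8 and 20.1 CPM in T+ normal samples, against 7.01, 10.4 and 9.89 CPM in WT samples (1.15 ± 0.23, SE, adjusted p = 0.0193). LBD39, a nitrate-responsive repressor of anthocyanin genes, was called too, though named after its values were seen, with 21.9, 18 and 22.6 CPM in T+ normal, against 14, 7.44 and 10.4 CPM in WT (0.97 ± 0.22, SE, adjusted p = 0.0333). Its relatives LBD37 and LBD38 had log2 differences of 0.64 and 0.50, and CPC had −0.21, none called.

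The 2 largest falls in the light signalling list were those of the early light-induced proteins, which bind chlorophyll under light stress. ELIP1 had 1.07, 2.62 and 1.22 CPM in T+ normal samples, against 24.2, 21.8 and 15.6 CPM in WT samples. The highest T+ normal sample, 2.62 CPM, was well under the lowest WT sample, 15.6 CPM. The difference was −3.65 ± 0.54, SE, adjusted p = 0.00415, and ELIP1 was called in all 6 fits without 1 library. ELIP2 had 0.0498, 0.312 and 0.137 CPM in T+ normal, against 4.21, 1.29 and 1.92 CPM in WT (−3.90 ± 0.93, SE, adjusted p = 0.0464, but 0.225 without T+ normal 1). Of the 4 light-stress proteins of the list, 2 were called without WT 3 and 1 without any other library. Of the 9 regulators around HY5 and the UV-B receptor none was called, with a median of −0.44, and HY5 itself had 11.3, 10.1 and 12.5 CPM in T+ normal, against 25.5, 14.2 and 16.5 CPM in WT (−0.73 ± 0.22, SE, adjusted p = 0.0894). The phytochromes and PIF factors had a median of −0.05 with none called.

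Over jasmonate synthesis, repressors, turnover and output together, 17 of 55 genes were called lower and none higher, 52 of 55 had a log2 difference under 0, and the median was −0.93. Beside these stand 0.802% of all genes called lower and a median of −0.02. Leaving out 1 library gave between 3 and 16 called, with 3 without T+ normal 1, 4 without T+ normal 2, 4 without T+ normal 3 and 3 without WT 2, and medians between −0.73 and −0.97. The means of the 4 lists did not overlap between T+ normal and WT samples, and T+ normal 1 was not the lowest sample in any of them.

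In synthesis, 2 of 13 genes were called lower (median −0.53). AOC1, an allene oxide cyclase, had 51.8, 41.9 and 41.7 CPM in T+ normal samples, against 125, 139 and 152 CPM in WT samples (−1.62 ± 0.30, SE, adjusted p = 0.0148), and AOC3 had 8.95, 9.9 and 9.77 CPM in T+ normal, against 23.3, 23.2 and 14.8 CPM in WT (−1.10 ± 0.23, SE, adjusted p = 0.0261). These are close copies, so reads that fit both are not in the counts. AOS, the step before, had 392, 313 and 348 CPM in T+ normal, against 597, 522 and 620.3 CPM in WT and was not called (−0.72 ± 0.23, SE, adjusted p = 0.107). Among the JAZ repressors, which jasmonate itself induces, 4 of 13 were called lower (median −0.65). JAZ5 had 5.93, 5.94 and 6.57 CPM in T+ normal, against 20.3, 13.6 and 18.6 CPM in WT (−1.51 ± 0.33, SE, adjusted p = 0.0329), JAZ1 had 40.4, 33.9 and 35.4 CPM in T+ normal, against 61.8, 59.7 and 76.1 CPM in WT (−0.85 ± 0.18, SE, adjusted p = 0.0261), JAZ6 differed by −0.93 and JAZ12 by −0.51.

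Jasmonate turnover had the lowest median of all lists, −1.56, with 5 of 11 called lower. ST2A, which sulfates a hydroxylated jasmonate, had 5.13, 5.56 and 7.88 CPM in T+ normal samples, against 30, 36.4 and 37.6 CPM in WT samples (−2.48 ± 0.58, SE, adjusted p = 0.047). JOX2, a jasmonate oxidase, had 26.5, 19.5 and 21.2 CPM in T+ normal, against 59.7, 62 and 54.1 CPM in WT (−1.39 ± 0.29, SE, adjusted p = 0.0262), and JMT, which makes methyl jasmonate, had 3.95, 2.81 and 3.34 CPM in T+ normal, against 9.66, 6.79 and 13.3 CPM in WT (−1.56 ± 0.32, SE, adjusted p = 0.0208). CYP94C1, which oxidises the active conjugate, and ILL6, which cleaves it, differed by −1.25 and −1.10. None of the 11 was called without T+ normal 1, with adjusted p from 0.0662 to 0.225 for these 5, and 1 to 6 were called without another library.

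Among output genes, 6 of 11 were called lower (median −1.42). TAT3, a tyrosine aminotransferase, had 101, 108 and 62.3 CPM in T+ normal samples, against 399, 300.2 and 283 CPM in WT samples (−1.86 ± 0.30, SE, adjusted p = 0.00646) and was called in all 6 fits without 1 library. CORI3, a cystine lyase induced by coronatine and wounding, had 709, 465 and 498 CPM in T+ normal, against 938, 1159 and 1294 CPM in WT (−1.02 ± 0.23, SE, adjusted p = 0.034). The terpene synthase TPS10 had 0.374, 0.533 and 0.399 CPM in T+ normal, against 2.32, 1.23 and 5.07 CPM in WT (−2.72), and TPS03 had 8.2, 9.47 and 11.5 CPM in T+ normal, against 20.6, 18.9 and 20.1 CPM in WT (−1.03). NATA1, which acetylates ornithine and related amines, had 23.3, 13.7 and 16.2 CPM in T+ normal, against 61.5, 150.2 and 45.4 CPM in WT (−2.28 ± 0.49, SE, adjusted p = 0.0347), and CLH1, a chlorophyllase, had 184, 147 and 166 CPM in T+ normal, against 359, 316 and 399 CPM in WT (−1.11 ± 0.27, SE, adjusted p = 0.0498). The storage protein VSP1 had 61, 96.3 and 188 CPM in T+ normal, against 259, 186 and 436 CPM in WT, and VSP2 had 122, 117 and 156 CPM in T+ normal, against 261, 300.3 and 494 CPM in WT, and neither was called (adjusted p = 0.288 and 0.265). None of the 7 regulators was called, and 3 of them had a log2 difference over 0 (median −0.06). MYC2 had 126, 97.8 and 136 CPM in T+ normal, against 219.5, 170.3 and 218 CPM in WT (−0.76 ± 0.20, SE, adjusted p = 0.0621).

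**Figure D3:**
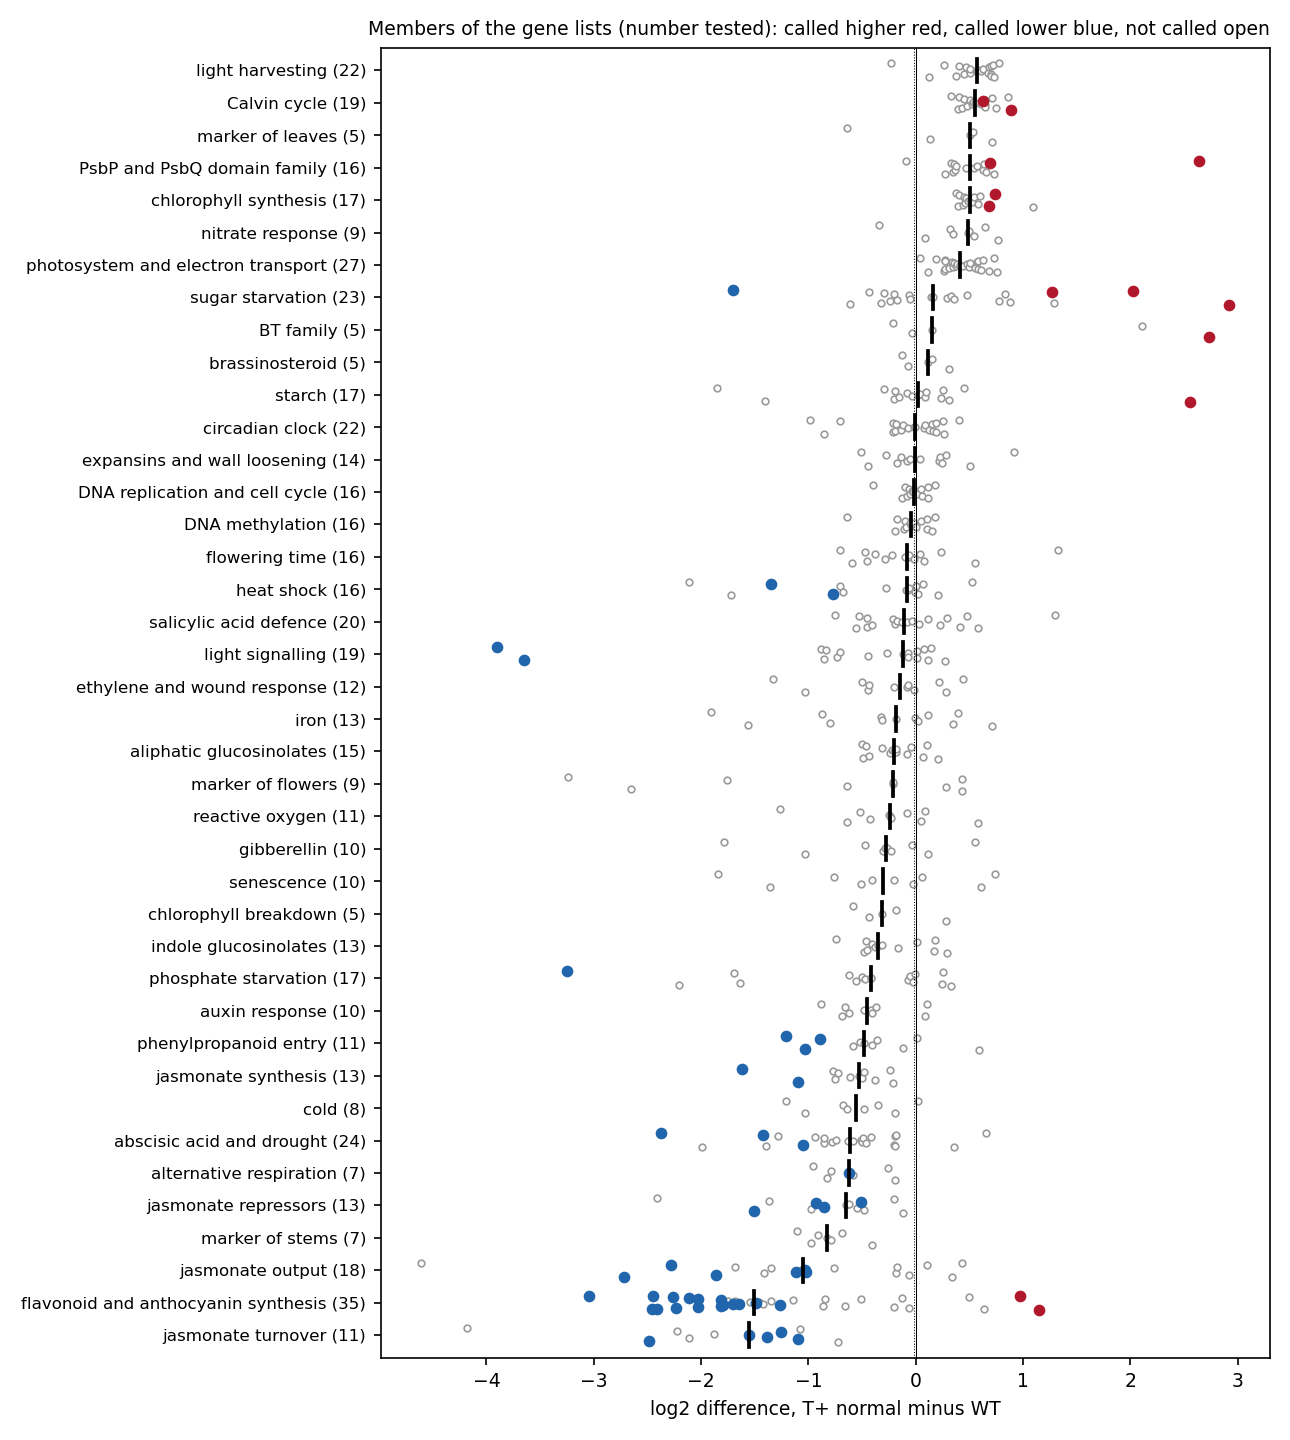
Log2 differences of T+ normal minus WT (horizontal axis) for the tested members of each list, with the number tested in brackets. Called genes are filled, red higher and blue lower, open points were not called, black bars are list medians and the dotted line is the median of all genes. Jasmonate turnover (−1.56) and flavonoid synthesis (−1.51) lie lowest, and light harvesting (0.58) highest.

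Further falls lay in stress lists, given beside the 0.802% of all tested genes that were called lower. In the abscisic acid (ABA) and drought list, 3 of 24 genes were called lower (median −0.61, 5 called without WT 3 and 1 without each of the other 5 libraries). RD20, a caleosin of lipid bodies induced by drought, had 56, 43.1 and 46.4 CPM in T+ normal samples, against 96.7, 95.8 and 108 CPM in WT samples, with tight groups. Its difference was −1.05 ± 0.15, SE, adjusted p = 0.00242, and it was called in all 6 fits without 1 library. RD29B had 3.88, 4.38 and 4.53 CPM in T+ normal, against 31.9, 23.4 and 11.1 CPM in WT (−2.38 ± 0.55, SE, adjusted p = 0.0442), and HAI1, a phosphatase that limits ABA signalling, had 4.58, 4.33 and 6.61 CPM in T+ normal, against 19.7, 13.7 and 8.19 CPM in WT (−1.42 ± 0.34, SE, adjusted p = 0.0482). In the heat shock list the chaperones HSP70 and HSP90.1 were called lower, 2 of 16 genes. HSP70 had 16.9, 11.8 and 10.9 CPM in T+ normal, against 28.7, 42.6 and 29.1 CPM in WT (−1.34 ± 0.27, SE, adjusted p = 0.0194), and HSP90.1 had 28.8, 21.4 and 18.7 CPM in T+ normal, against 38, 37.2 and 42.7 CPM in WT (−0.77 ± 0.19, SE, adjusted p = 0.0462). HSP70 was called in 3 of the 6 fits without 1 library, and HSP90.1 in 1 of them, the fit without T+ normal 1. AOX1A, the alternative oxidase of mitochondria, had 34.2, 30 and 37.3 CPM in T+ normal, against 52.1, 50 and 53.9 CPM in WT (−0.62 ± 0.13, SE, adjusted p = 0.0221), the only call among 7 genes of alternative respiration. AOX1A lost its call without T+ normal 1 (0.096), without T+ normal 2 (0.0724) and without WT 2 (0.0781). RNS1, a ribonuclease induced by phosphate shortage and wounding, had 0.834, 1.36 and 0.49 CPM in T+ normal, against 6.83, 6.68 and 12 CPM in WT (−3.25 ± 0.73, SE, adjusted p = 0.0396) and was the only call among 17 phosphate starvation genes, kept in 1 of the 6 fits without 1 library.

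Some falls outside the lists were among the steadiest. GSTU7, a glutathione transferase, had 13.4, 9.88 and 14.8 CPM in T+ normal, against 27.4, 27.8 and 23.5 CPM in WT (−1.05 ± 0.12, SE, adjusted p = 0.000295), AT5G17000, a zinc-binding dehydrogenase, had 24.9, 20.8 and 21.2 CPM in T+ normal, against 47.4, 47.8 and 44.9 CPM in WT (−1.07 ± 0.14, SE, adjusted p = 0.00112), and AT5G20190, a tetratricopeptide protein, had 86.2, 86.1 and 87.8 CPM in T+ normal, against 168, 170.4 and 135 CPM in WT (−0.87 ± 0.12, SE, adjusted p = 0.00242). All 3 were called in each of the 6 fits without 1 library. GSTU7 overlaps other genes. AT3G24750 had 0.0125, 0.39 and 0.114 CPM in T+ normal, against 3.12, 7.45 and 2.76 CPM in WT (−4.70 ± 0.80, SE, adjusted p = 0.00913). In T+ normal 1 it had 1 count, under the limit that a count of 0 allows, and it overlaps AT3G04805. AT5G50360 differed by −2.71, AT5G03204 by −2.67, AT1G61255 by −2.61 and PGSIP8 by −2.49, all at under 4 CPM.

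Genes of the photosynthetic apparatus were higher in T+ normal by a small step. Over light harvesting, photosystems with electron transport, the Calvin cycle and chlorophyll synthesis, 84 of 85 genes had a log2 difference over 0, with a median of 0.51, but 4 were called, all higher, and the groups did not overlap in 46, beside the 15.3% of all genes. Over all tested genes 10287 of 21703 were over 0, and 0.534% were called higher. Without T+ normal 1 the median was 0.44 with none called, without WT 2 it was 0.43 with none called, and with another library left out 4 to 13 were called. Leaf markers, some of which belong to these lists, summed higher in T+ normal, without a call and with CAT2 lower, as given above, and their part was not tested. CHLP, an enzyme of chlorophyll synthesis, had 1189.5, 1013 and 1032 CPM in T+ normal, against 624, 549 and 761 CPM in WT (0.74 ± 0.16, SE, adjusted p = 0.0268), and CHLM, another, had 245, 205 and 222 CPM in T+ normal, against 158, 111 and 149 CPM in WT (0.68 ± 0.16, SE, adjusted p = 0.0369). CFBP1, the plastid fructose-bisphosphatase, had 821, 639.9 and 752 CPM in T+ normal, against 530.0, 401 and 501 CPM in WT (0.63 ± 0.15, SE, adjusted p = 0.0396), and RBCS2B, a small subunit of Rubisco, had 1886, 1473 and 1262 CPM in T+ normal, against 856, 652 and 991 CPM in WT (0.89 ± 0.22, SE, adjusted p = 0.0482). CHLP, CHLM and CFBP1 overlap other genes, and RBCS2B has close copies.

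No light-harvesting gene and no photosystem gene passed the threshold, although the samples of the groups did not overlap in 16 of 22 and 8 of 27 of them, beside 15.3% of all tested genes. LHCB5 had 5419, 4449 and 5007 CPM in T+ normal, against 3541, 2568 and 3201 CPM in WT (0.68 ± 0.18, SE, adjusted p = 0.0591), and LHCA6 had 118, 90.9 and 103 CPM in T+ normal, against 72.8, 48.4 and 66.7 CPM in WT (0.73 ± 0.18, SE, adjusted p = 0.0517). PETC, the Rieske protein of the cytochrome complex, had 570.1, 513 and 803 CPM in T+ normal, against 467, 289 and 379.8 CPM in WT (0.73 ± 0.19, SE, adjusted p = 0.0622), and PSBO1, of the oxygen-evolving complex, had 4680.0, 3897 and 3698 CPM in T+ normal, against 2989, 2139 and 2538 CPM in WT (0.68 ± 0.18, SE, adjusted p = 0.0654). In the PsbP and PsbQ domain family, PPD3 and PPD5 were the 2 of 16 genes called, both higher, beside 0.534% of all tested genes. PPD3 is the gene that the transgene overexpresses, so its call was given by the design. This leaves PPD5 as the only call among its relatives. The family median was 0.51 (0.36 without T+ normal 1). PPD5, which overlaps AT5G11460, had 161, 125 and 102 CPM in T+ normal, against 93.3, 64 and 82.1 CPM in WT (0.70 ± 0.16, SE, adjusted p = 0.0426). Its call was lost without T+ normal 1 (0.254). Of the 16 family genes, 1 was called without T+ normal 1, without T+ normal 2 or without WT 2. PSBP1, the main PsbP protein of photosystem II, had 3715, 3227 and 3122 CPM in T+ normal, against 2573, 1859.9 and 2348 CPM in WT, not called (0.57 ± 0.17, SE, adjusted p = 0.095).

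Location notes were counted over all called genes, members of these lists included. Of the 70 genes called higher with a location note in TAIR's summaries, 45, or 64.3%, name the plastid in that note, against 13 of 107 genes called lower, or 12.1%, and 2532 of 13146 tested genes with a note, or 19.3%. The genes called higher, 116 in the full fit, were 19 without T+ normal 1 and 11 without WT 2. The notes were counted for the full fit only. The DEG proteases of the thylakoid, which cut damaged photosystem proteins, were named after their values were seen. DEG2 had 299, 263 and 228 CPM in T+ normal, against 137, 131 and 196 CPM in WT (0.77 ± 0.14, SE, adjusted p = 0.0141), and DEG5 and DEG8 differed by 0.62 and 0.52. Chosen in the same way, CA2, a carbonic anhydrase, had 1235, 964 and 1072 CPM in T+ normal, against 562, 373 and 613 CPM in WT (1.08 ± 0.23, SE, adjusted p = 0.028). BBX14 and BBX15, B-box zinc finger proteins, differed by 1.15 and 0.67, and RVE2, a MYB-like factor related to clock genes, by 1.08 (adjusted p = 0.0108, 0.0428 and 0.042).

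In most other lists no gene was called. These were the circadian clock, light harvesting, photosystems, nitrate response, cold, reactive oxygen, iron, indole and aliphatic glucosinolates, salicylic acid, ethylene and wounding, expansins, auxin, gibberellin, brassinosteroid, senescence, chlorophyll breakdown, cell cycle, DNA methylation and flowering time. Medians ran from −0.56 for cold to 0.58 for light harvesting. CBF3, a cold regulator, had 6.13, 6 and 10 CPM in T+ normal, against 16.5, 23.4 and 11.3 CPM in WT (−1.21 ± 0.31, SE, adjusted p = 0.058). NIR1, nitrite reductase, had 270.4, 275 and 294 CPM in T+ normal, against 204, 167 and 228 CPM in WT (0.49 ± 0.18, SE, adjusted p = 0.164), and HHO3, a nitrate-responsive repressor, had 92.6, 70.1 and 105 CPM in T+ normal, against 49.2, 50.3 and 57.1 CPM in WT (0.77 ± 0.20, SE, adjusted p = 0.055). Of clock genes, CCA1 had 7.02, 9.64 and 10.1 CPM in T+ normal, against 14.6, 14.5 and 14.7 CPM in WT (−0.71 ± 0.20, SE, adjusted p = 0.0827). Of 17 starch genes 1 was called, QQS, which was higher and is described below, beside 0.534% of all tested genes called higher. GBSS1, also of the starch list, was not called, with 6.46, 16.6 and 12.4 CPM in T+ normal, against 27.1, 43 and 23.7 CPM in WT (−1.40 ± 0.37, SE, adjusted p = 0.0691). CMT3, a DNA methyltransferase, had 39.2, 42.5 and 42.8 CPM in T+ normal, against 35.7, 34 and 40.3 CPM in WT (0.18 ± 0.10, SE, adjusted p = 0.432).

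**Figure D4:**
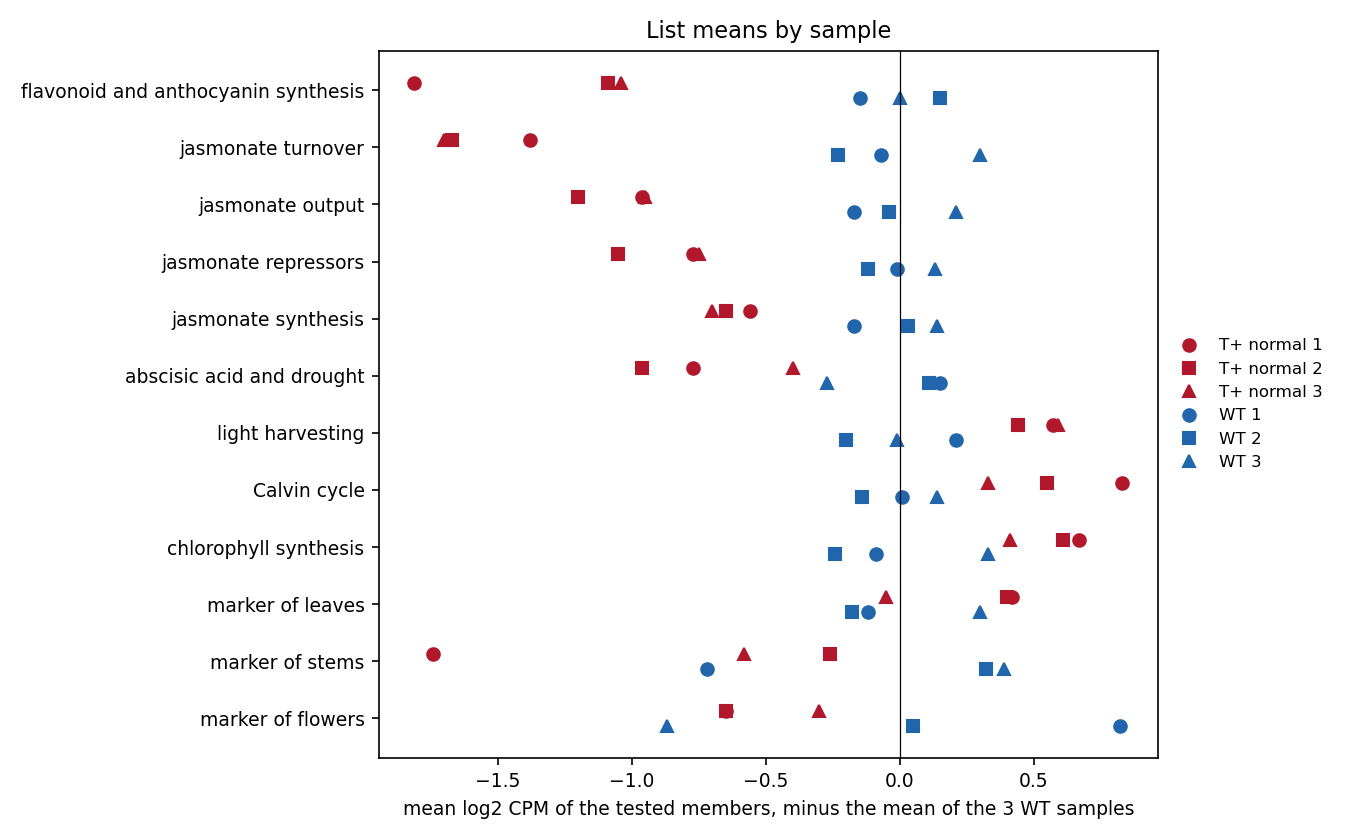
Mean log2 CPM of the tested members of 12 lists in each sample, minus the mean of the 3 WT samples (horizontal axis), with T+ normal in red and WT in blue and a symbol for each replicate. T+ normal 1 lies lowest for flavonoid genes (−1.81) and stem markers (−1.74), while the 4 jasmonate lists separate the groups in every sample.

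Some called genes set WT apart from all other groups. AT3G04650, an oxidoreductase family member and the gene with the smallest p, had 54.2, 49.1 and 36.1 CPM in T+ normal samples, against 5.4, 4.57 and 6 CPM in WT samples (3.13 ± 0.16, SE, adjusted p = 1.00e-09). The other groups lay at 27.9 to 50.6 CPM, and T+ normal against Gen2 large was not called (−0.04 ± 0.15, adjusted p = 0.945). QQS, a gene without relatives outside Arabidopsis and known to lower leaf starch, had 56.5, 28.9 and 68.9 CPM in T+ normal, against 10.5, 8.14 and 7.57 CPM in WT (2.55 ± 0.28, SE, adjusted p = 0.000225). AT1G75945, an uncharacterized gene at chromosome 1 from 28515245 to 28515916 of TAIR10.1, had 0.149, 0.104 and 0.342 CPM in T+ normal samples, against 14.5, 15.7 and 16.7 CPM in WT samples (−6.27 ± 0.59, SE, adjusted p = 1.78e-05), and no sample of the other groups passed 1.52 CPM. For 12 of the 290 called genes the 3 WT samples lay beyond all 17 others, which holds for 38 of all tested genes, or 0.175%. The calls used the WT samples, so these counts are a description. These 12, given whatever their rank, were AT3G04650, QQS, AT1G67105, AT4G34930, NPC2 and AT1G08592, higher in T+ normal, and SDHAF2, AT2G23910, AT5G37550, CHI, CHIL and AT1G75945, lower. The margin was narrow for some. CHI had 34 CPM in its lowest WT sample, against 33.5 CPM in the highest sample of the other groups, and AT5G37550 had 2.96 against 2.93 CPM. AT1G75945 lies within 200 kb of PPD3, where 6 of 97 tested genes, PPD3 included, were called, beside 1.34% of all tested genes.

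Many more called genes set T+ normal apart. In 64 of the 116 genes called higher and 48 of the 174 called lower, the 3 T+ normal samples lay beyond all 17 others, which holds for 451 of all tested genes, or 2.08%. The calls used the T+ normal samples, so these counts are a description. The 3 T+ dwarf samples carry the same transgene label, and 3255 genes, or 15.0%, were called for T+ normal against T+ dwarf. Among the 290 genes, 270 were. Against Gen2 large, the other group without the dwarf phenotype, 68 genes were called, or 0.313%, and 29 of the 290 were. These contrasts share the T+ normal samples with the comparison against WT.

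BT2 and AT2G20670 were higher in T+ normal than in both. BT2 stood at 154 to 326 CPM in T+ normal, 14.2 to 20.5 CPM in T+ dwarf and 41.4 to 47.6 CPM in Gen2 large, with log2 differences of 3.82 ± 0.54 (adjusted p = 0.000659) against T+ dwarf and 2.50 ± 0.51 (adjusted p = 0.0469) against Gen2 large. AT2G20670 differed by 3.81 ± 0.41 (adjusted p = 9.34e-05) and by 3.18 ± 0.40 (adjusted p = 0.00112). KMD1 differed by 2.18 ± 0.46 (adjusted p = 0.0051) and by 3.35 ± 0.49 (adjusted p = 0.0052), and MYBL2 by 0.98 ± 0.23 (adjusted p = 0.00823) and by 1.54 ± 0.23 (adjusted p = 0.0052). RD20 was lower than in both, by −1.75 ± 0.15 (adjusted p = 9.83e-06) and −0.80 ± 0.15 (adjusted p = 0.0223).

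Of 55 jasmonate genes, 40 were called against T+ dwarf, where 15.0% of all tested genes were. None was called against Gen2 large, where 0.313% of all genes were, so that 0 is close to the share over all genes and says nothing particular to jasmonate. The medians against WT were −0.93 in T+ normal, 0.37 in T+ dwarf and −0.81 in Gen2 large, 3 values that share the WT samples. AOC1 averaged 45.1 ± 5.77 CPM in T+ normal, 182 ± 61.2 CPM in T+ dwarf, 44.1 ± 12.8 CPM in Gen2 large and 139 ± 13.8 CPM in WT (SD, n = 3 each). The difference from Gen2 large was 0.03 ± 0.30 (adjusted p = 0.983). For the 85 photosynthesis and chlorophyll genes, 70 were called against T+ dwarf and 0 against Gen2 large, beside the same shares of all genes, with medians against WT of 0.51, −0.28 and 0.19 in T+ normal, T+ dwarf and Gen2 large. For the 35 flavonoid genes, 22 were called against T+ dwarf and 1 against Gen2 large, with medians of −1.51, −0.07 and −0.30. PAP1 lay at 10.5 to 15 CPM in T+ normal, 48.3 to 70 CPM in T+ dwarf, 22.7 to 32.2 CPM in Gen2 large and 38.1 to 53.2 CPM in WT. The difference from Gen2 large was not called (−1.11 ± 0.33, adjusted p = 0.193). AT3G28320, uncharacterized, had 1.65 to 2.24 CPM in T+ normal and 1.61 to 2.47 CPM in Gen2 large, against 0.268 to 0.422 CPM in T+ dwarf and 0.262 to 0.448 CPM in WT.

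**Figure D5:**
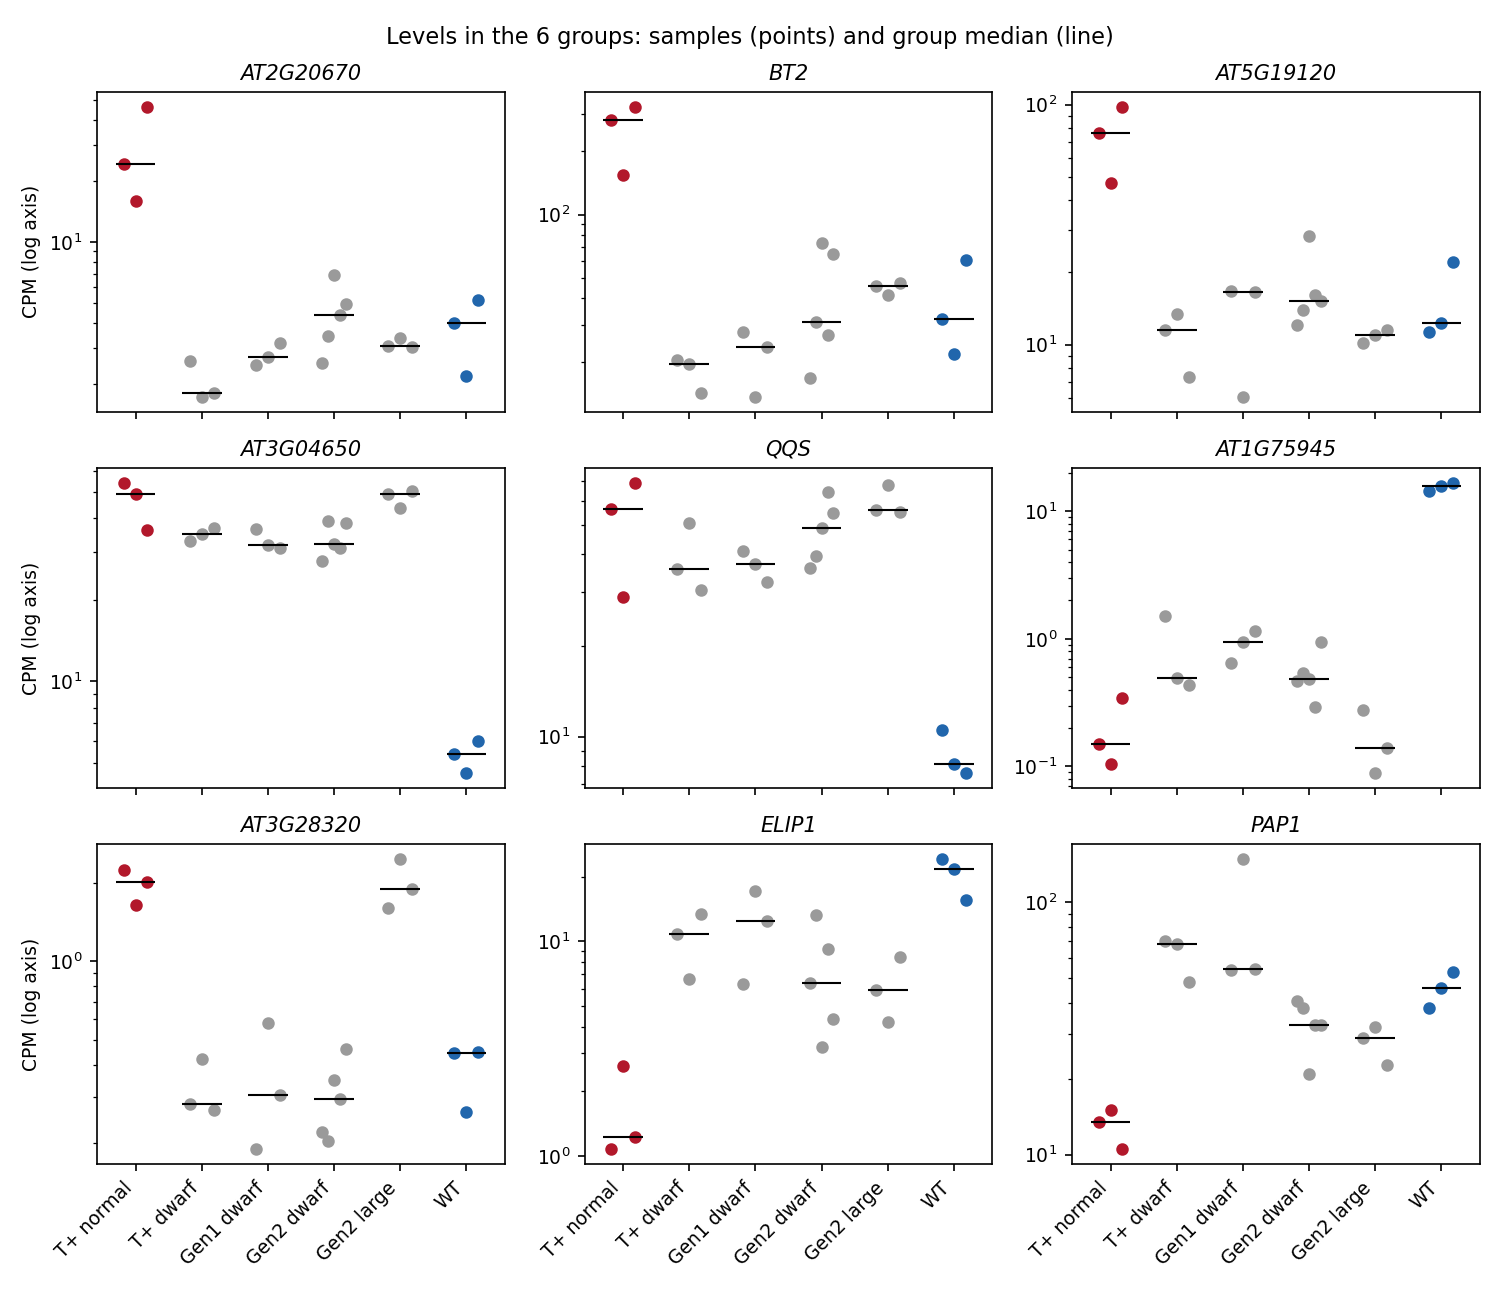
Level in CPM (vertical log axis) of 9 genes in all 20 samples by group, with T+ normal red, WT blue, the other groups grey, and the group median as a line. AT2G20670, BT2 and AT5G19120 are highest in T+ normal, AT3G04650, QQS and AT1G75945 set WT apart, and AT3G28320 is high in T+ normal and Gen2 large.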

How the data were processed

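The authors deposited raw counts per gene for each sample. Per the submitters' processing notes, Trim Galore 0.4.1 trimmed the reads and STAR 2.7.0a was the aligner, with TAIR10 as the genome build. Libraries followed the TruSeq RNA v2 guide and were read as 100-bp pairs, per the labels' protocols. How reads were assigned to genes, by which annotation release and with or without strand, is not stated in the labels or file headers. The 5 lines without a gene were left out. Relative to gene counts, reads without a gene were 0.874 to 1.02% in T+ normal and 0.879 to 0.938% in WT, and ambiguous reads 0.264 to 0.293% and 0.285 to 0.36%. Counts of reads aligned to several places are 0, so close copies are uncertain, as are overlapping genes, which make up 31.4% of called and 32.7% of tested genes.

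All 20 samples of the 6 groups entered 1 edgeR model (4.0.16, R 4.3.3, limma 3.58.1) with a term per group, so that groups share 1 estimate of the spread. Genes were kept by filterByExpr at a minimum count of 10. The fit used TMM scaling and robust quasi-likelihood F tests on 14 residual degrees of freedom (biological coefficient of variation 0.225). P-values were adjusted by Benjamini and Hochberg's method across all 21703 genes and called at 0.05. Standard errors (SE) are the log2 difference divided by the root of F. CPM use TMM-scaled library sizes, and log2 means a prior count of 2. No 2 samples of a group agreed within sampling noise (chi-square per gene 68.4 to 183), and each is 1 replicate. The script was tested on simulated counts. Alternatives were RLE scaling, no filter, the replicate number as a block, only the 2 groups, each library left out, and DESeq2 1.42.0.

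The comparison, the 41 gene lists (582 loci, 573 tested) and the motifs were chosen with earlier results of these data known, so lists carry counts and medians and no test. List counts without a library and counts of genes beyond all other samples were added after the data were seen. Named genes are PPD3, MSH1, the 20 largest rises and 20 largest falls among called genes whose groups do not overlap, up to 6 called genes per list by smallest p (or the 2 smallest p where fewer than 2 were called), all BT genes, and the 10 smallest p. Many others are marked as chosen after their values were seen. Some list members and markers outside these rules carry no such mark, among them MYB12, FLS1, AOS, MYC2, VSP1 and VSP2. They are to be read as chosen in the same way. Names, coordinates and sequences come from RefSeq's TAIR10.1, which holds 32548 of the 34262 loci.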

Additional observations from a re-analysis of the deposited data

Results flagged for a closer look

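For 9 of the named genes called against WT, the difference from WT in T+ normal was called as different from that in T+ dwarf, and the T+ dwarf difference from WT pointed the other way by a log2 size of 0.5 or more. The test is the contrast of T+ normal minus T+ dwarf in the same edgeR fit, in which WT drops out. None of the 9 was called for T+ dwarf against WT.

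Of the rises, AT2G20670 differed between T+ normal and T+ dwarf by 3.81 ± 0.41 (SE, adjusted p = 9.34e-05), with −0.89 ± 0.38 for T+ dwarf minus WT. BT2 differed by 3.82 ± 0.54 (adjusted p = 0.000659), with −1.08 ± 0.49. AT5G19120 differed by 2.78 ± 0.41, with −0.51 ± 0.39, OXS3 by 2.73 ± 0.45, with −0.60 ± 0.43, and AT5G21940 by 2.51 ± 0.37, with −0.76 ± 0.35.

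Of the falls, NATA1 differed by −2.83 ± 0.50 (adjusted p = 0.00181), with 0.55 ± 0.47 for T+ dwarf minus WT. ST2A differed by −3.73 ± 0.61, with 1.24 ± 0.55, AT1G61255 by −3.13 ± 0.60, with 0.53 ± 0.53, and RNS1 by −3.81 ± 0.74, with 0.56 ± 0.64. ST2A averaged 81.9 ± 62.1 CPM and RNS1 12.5 ± 10.5 CPM in T+ dwarf (SD, n = 3), so these samples spread widely.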

How the results depend on the processing

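Each of the 78 called named genes kept its direction against WT in every alternative fit that gave it a value. Where the groups do not overlap, leaving out 1 library could hardly reverse a direction, so this is no check there. Of the named genes that were not called, BT1 was at 0.04 without T+ normal 2, BT3 at 0.02 and 0.09 without T+ normal 2 and WT 2, and BT4 at −0.01 without T+ normal 1, each across 0 from its reported value, and MSH1 lay on either side of 0 with values from −0.15 to 0.19. Of the 78 called named genes, 1 lost its call with RLE scaling, 15 with no filter on low counts, 16 with the replicate block, 50 with only the 2 groups in the fit and 0 with DESeq2. With 1 library left out, 51, 32 and 34 lost it without T+ normal 1, 2 and 3, and 16, 59 and 9 without WT 1, 2 and 3.

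For T+ normal against WT, with 290 called, 116 higher and 174 lower, only the 2 groups in the fit gave 52, 10 and 42, and DESeq2 gave 1166, 546 and 620. Leaving out 1 library gave 36 to 559 called, 11 to 311 higher and 25 to 278 lower. The lowest count was without WT 2 and the highest total without WT 3. Rises outnumbered falls without T+ normal 2 (127 and 94), without T+ normal 3 (175 and 134) and without WT 3 (311 and 248). RLE scaling called 303, 282 of them among the 290, and no filter 241, with 240 shared. At an unadjusted p under 0.05 there were 3349 genes.

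Against T+ dwarf, with 3255 called, only the 2 groups gave 2014, and leaving out 1 library 1927 to 2653. Against Gen2 large, with 68 called, the replicate block gave 110, only the 2 groups 43, DESeq2 376, and leaving out 1 library 13 to 167. The cause of these changes was not tested, other than that fits of 2 groups and without a library hold fewer samples.

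Same-numbered samples of T+ normal and WT had correlations of −0.26, 0.05 and −0.19 in their deviations from group means. Differently numbered samples had −0.13 to 0.26. With 3 samples a group these values are tied to each other, so they cannot decide whether the replicate numbers pair the samples. The replicate block called 261 genes against WT, 212 of them among the 290. The reported fit did not use the replicate numbers.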

Other observations

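Further called genes outside the lists, chosen after their values were seen, are given as values. SIGE, a sigma factor of the plastid RNA polymerase, fell by a log2 difference of −1.57 ± 0.25, SE, adjusted p = 0.00512, with 13, 11.7 and 12.3 CPM in T+ normal, against 36.6, 36.2 and 37.2 CPM in WT. SWEET1, a sugar transporter, had 10.9, 13.3 and 13 CPM in T+ normal, against 26.8, 25.8 and 27.4 CPM in WT (−1.10 ± 0.17, SE, adjusted p = 0.00363), and the stress-responsive factor NAC032 had 6.6, 2.87 and 4.44 CPM in T+ normal, against 14.8, 12.5 and 8.23 CPM in WT (−1.36 ± 0.25, SE, adjusted p = 0.0129). BMY3, a beta-amylase, had 20.3, 19.8 and 19.3 CPM in T+ normal, against 8.08, 11.8 and 12.2 CPM in WT (0.89 ± 0.15, SE, adjusted p = 0.00668). SIGE, SWEET1 and BMY3 were called in all 6 fits without 1 library, and SWEET1 and BMY3 overlap another gene.

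Of genes known from the woody cell wall, 3 that were called lower are given as values, chosen after these were seen. MYB46, a master factor of the secondary wall, had 0.523, 0.818 and 0.809 CPM in T+ normal, against 1.44, 1.94 and 1.63 CPM in WT (−1.22 ± 0.30, SE, adjusted p = 0.049). CAD5, of lignin synthesis, had 26.4, 27.8 and 37.3 CPM in T+ normal, against 73.1, 88.7 and 55.3 CPM in WT (−1.25 ± 0.25, SE, adjusted p = 0.0199), and GXMT1, of xylan, had 1.81, 3.55 and 3.79 CPM in T+ normal, against 3.79, 7.29 and 7.91 CPM in WT (−1.05 ± 0.26, SE, adjusted p = 0.0498). None of the 7 stem wall markers, a list that does not hold these 3 genes, was called (median −0.82, and −0.49 without T+ normal 1). Among them, IRX3 had 3.88, 11.4 and 10 CPM in T+ normal, against 9.85, 18 and 16 CPM in WT, and LAC4 had 3.87, 7.38 and 6.16 CPM in T+ normal, against 6.69, 13.1 and 14.4 CPM in WT.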
